A study of Mus musculus with 4 samples.

Results

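The genes described here encode the aminoacyl-tRNA synthetases of the mouse, together with a pair of proteins that hold several of the cytosolic enzymes in 1 complex. They were taken by gene name, from a list drawn up with earlier results of these data known. They make up 39 of the 36918 gene names on the array. Of these, 21 encode cytosolic enzymes, 2 encode scaffold proteins and 16 encode mitochondrial enzymes. Names ending in 2, apart from Aimp2, stood for mitochondrial enzymes, except that Tarsl2, which encodes a second cytosolic threonyl-tRNA synthetase, was counted with the cytosolic enzymes.

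The series measured gene expression on 1-colour Agilent arrays in mouse pancreatic cancer cells of strain C57BL/6, called K5 and K6. Each was exposed to halofuginone at 100 nM for 24 hours or to DMSO, the solvent control, and each line and condition has 1 array, 4 in all. The labels do not say what sets K5 apart from K6, or whether either is a clone, and the design text writes F in place of the H of the sample titles. The series title concerns Nrf2 and sensitivity to gemcitabine, and the design sets halofuginone against control within each line.

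Aminoacyl-tRNA synthetases join each amino acid to its tRNA, the step that supplies the ribosome. Nuclear genes encode separate cytosolic and mitochondrial enzymes for most amino acids, while Gars and Kars each give both forms. Halofuginone, a derivative of a plant alkaloid, occupies the active site of the prolyl domain of the protein made from Eprs, and uncharged tRNA is sensed by the kinase Gcn2 (gene Eif2ak4), which phosphorylates the initiation factor eIF2alpha and raises translation of the transcription factor Atf4. Atf4 binds, with partners of the C/EBP family, a composite DNA element found near many genes of amino acid supply.

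That element was looked for in the promoters because several cytosolic genes rose after halofuginone. The sequences are from RefSeq on GRCm38.p6, each covering 250 bases before and 50 bases from the annotated start of the gene, and 30 of the 39 members matched an entry (14 cytosolic, 2 scaffold and 14 mitochondrial). The letters searched were TGATGNAA on both strands (TTNCATCA on the other strand), and the stricter TGATGCAA (TTGCATCA), which is a subset of the first. The degenerate form stood in 5 members, all cytosolic, in 0 of the 14 mitochondrial members and 0 of the 2 scaffold members, and in 1304 of all 32851 promoters (3.97%). The strict form stood in Aars, Yars, Tars and Iars, against 294 of all promoters (0.895%). The promoters with a match are shown 5′ to 3′ on the strand of the gene, in lower case with the match in capitals: Aars at chr8:111033592-111033891 on the plus strand, Yars at chr4:129189653-129189952 on the plus strand, Tars at chr15:11399609-11399908 on the minus strand, Iars at chr13:49681880-49682179 on the plus strand and Gars at chr6:55037751-55038050 on the plus strand.
Aars: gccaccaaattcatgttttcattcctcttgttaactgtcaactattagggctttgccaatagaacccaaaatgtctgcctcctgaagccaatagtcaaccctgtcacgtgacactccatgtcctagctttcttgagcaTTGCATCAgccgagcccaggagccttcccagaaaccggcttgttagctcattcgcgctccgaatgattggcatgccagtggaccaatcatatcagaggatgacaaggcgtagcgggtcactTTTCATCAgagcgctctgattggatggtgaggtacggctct
Yars: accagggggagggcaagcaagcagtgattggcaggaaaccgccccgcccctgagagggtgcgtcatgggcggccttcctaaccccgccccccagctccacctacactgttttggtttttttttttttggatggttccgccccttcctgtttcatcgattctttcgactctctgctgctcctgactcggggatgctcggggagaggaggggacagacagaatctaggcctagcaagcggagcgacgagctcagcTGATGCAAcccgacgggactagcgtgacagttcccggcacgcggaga
Tars: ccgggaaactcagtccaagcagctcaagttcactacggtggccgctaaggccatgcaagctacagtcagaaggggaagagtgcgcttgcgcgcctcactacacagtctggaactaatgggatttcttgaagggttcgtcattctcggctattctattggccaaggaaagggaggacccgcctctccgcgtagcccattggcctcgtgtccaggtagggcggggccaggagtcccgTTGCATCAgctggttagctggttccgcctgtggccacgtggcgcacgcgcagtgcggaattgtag
Iars: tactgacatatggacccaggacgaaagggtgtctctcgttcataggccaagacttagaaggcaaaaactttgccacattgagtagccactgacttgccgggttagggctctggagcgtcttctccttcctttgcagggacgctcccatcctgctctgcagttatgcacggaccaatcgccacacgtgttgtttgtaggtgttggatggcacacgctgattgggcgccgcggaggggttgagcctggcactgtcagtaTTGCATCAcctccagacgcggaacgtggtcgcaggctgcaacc
Gars: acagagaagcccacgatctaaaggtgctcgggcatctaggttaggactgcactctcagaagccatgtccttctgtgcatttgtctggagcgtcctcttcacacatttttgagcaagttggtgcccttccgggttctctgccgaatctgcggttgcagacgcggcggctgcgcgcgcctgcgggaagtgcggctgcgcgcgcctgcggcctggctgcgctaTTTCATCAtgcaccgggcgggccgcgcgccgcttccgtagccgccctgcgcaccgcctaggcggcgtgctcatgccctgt

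Counted from the start site as 0, the first base of the strict match lay at position -112 in Aars, 3 in Yars, -15 in Tars and 7 in Iars. Aars held a further degenerate match at position 9, and the single degenerate match of Gars began at position -30. Of the 5 cytosolic members that rose after halofuginone (below) and have a promoter entry, 4 held the strict form, and Eprs, the other, held neither form in this window. Rars, Nars and Lars also rose but have no entry. Of the 9 cytosolic members with an entry that did not pass the test, 1 held the degenerate form (Gars) and 0 held the strict form. This split depends on the threshold, since Farsb, Sars and Gars lay just above it (limma adjusted p = 0.057, 0.059 and 0.062). A match describes letters only and does not show that a protein binds there.

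**Figure D1:**
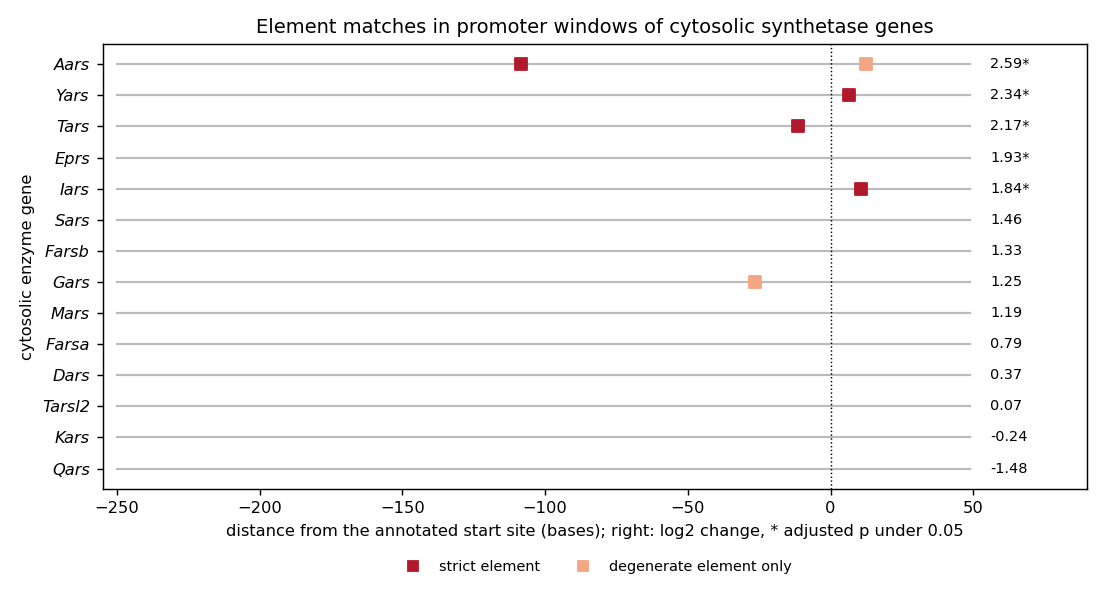
Each grey line is the promoter window of 1 cytosolic synthetase gene, drawn by distance from the annotated start site in bases, with squares at matches of the strict element (red) or of the degenerate form only (orange) and the mean log2 change of both lines at the right. Strict matches stand in Aars, Yars, Tars and Iars, whose changes were 2.59, 2.34, 2.17 and 1.84, and 1 degenerate match stands in Gars, at 1.25.

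Levels below are log2 of the processed signal relative to the 75th percentile of the same array, so 0 is that percentile, and they come from the brightest probe of each gene. A gene was tested where 2 or more arrays read this probe well above background, which held for 19093 genes and for all 39 members. Changes are halofuginone minus control on this log2 scale, tested with limma with the line as a block, and "rose" or "fell" means an adjusted p under 0.05. Its residual comes solely from how far K5 and K6 disagree, so a call implies the same direction in both lines. The p-values combine the disagreement of K5 and K6 (1 degree of freedom) with a spread shared by all tested genes (2.97 prior degrees). No tested gene had an SE under 0.255, and no change under 1.483 in size was called, however well the lines agreed. RNA was pooled from many cells, so a larger share of cells carrying a transcript and more transcript per cell cannot be told apart. No source says that the samples were separate cultures, so p-values describe these samples only.

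Of 59305 spots, 53.1% and 54.0% exceeded background clearly on the K5 and K6 halofuginone arrays, against 47.2% and 48.6% on the control arrays, and 0 were saturated. Of all tested genes, 3.88% rose and 5.08% fell, and their median log2 change was -0.03 in K5 and 0.04 in K6. All 9 epithelial and ductal markers were well above background on every array, with summed levels between 703 and 976 times the 75th percentile. Fibroblast and stellate markers (0 to 3 of 7, summed 0.130 to 0.415) were mostly near the detection limit. So were endothelial (0 to 3 of 4, 0.0692 to 0.449) and islet markers (0 to 2 of 4, 0.106 to 0.124). Of 6 immune markers matched, 5 were detected on all 4 arrays. Their summed level was 13.4 and 9.80 on the K5 and K6 halofuginone arrays, against 30.2 and 27.3 on the control arrays. That sum is weighted towards Cd14, the brightest of them in the controls (log2 level 4.26 in K5 and 4.03 in K6). Cd14 and Cd68 fell, and the other detected markers did not pass. In K5 and K6, Cd3e changed by -1.04 and -0.63, Itgam by -0.24 and -0.34 and Ptprc by 1.04 and 0.17. Acinar markers (2 of 6 detected) summed to 0.742 and 0.462 on the halofuginone arrays, against 3.65 and 2.24 on the control arrays. That sum is mostly Cela1, at a log2 level of 1.80 and 1.07 in control K5 and K6, against -0.66 and -1.53 with halofuginone. Ctrb1, the other one detected, was at -3.21 and -3.68 in the controls and did not pass. Kdr, an endothelial marker, rose, to -3.66 and -1.58 in halofuginone K5 and K6, but control K5 did not read it well above background. Muc1 of the epithelial and Cela1 of the acinar markers fell. The part of these markers in the results was not tested.

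Cytosolic synthetase genes were mostly higher after halofuginone. Of 21, 8 rose, 0 fell and 13 did not pass (limma), beside 3.88% of all tested genes that rose, and at an unadjusted p under 0.05 limma had 16 higher and 1 lower, beside 17.2% and 16.9% of all tested genes. Both halofuginone arrays lay above both control arrays in 18 of 21, beside 30% of all tested genes, and below them in 1, Qars, beside 28.6%. The median was 1.37 for the change in K5 and 1.29 in K6, beside -0.03 and 0.04 over all tested genes. In both lines 18 of 21 had a positive change, beside 38.7% of all tested genes, 2 had a negative change in both (38%) and 1 had opposite signs (23.3%). At least 2-fold higher levels were found in 13 members in K5 and 14 in K6, beside 14.1% and 16.4% of tested genes, and in 12 members in both lines (8.59%). Across the class the mean change of both lines ran between -1.48 (Qars) and 2.59 (Aars).

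**Figure D2:**
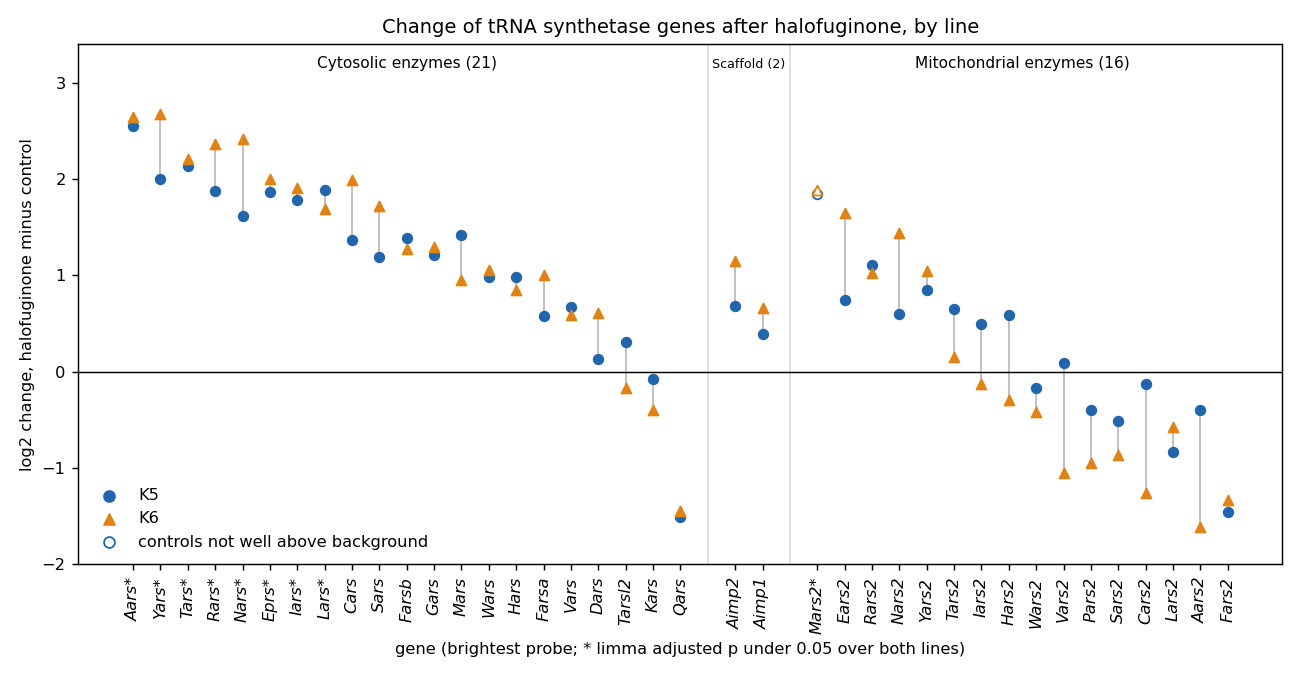
The vertical axis gives the log2 change, halofuginone minus control, of each of the 39 genes along the horizontal axis, with K5 as circles and K6 as triangles, grouped as cytosolic enzymes, scaffold proteins and mitochondrial enzymes. Of the cytosolic genes 18 of 21 lie above 0 in both lines and 2 below it in both, whereas the mitochondrial genes lie on both sides, 6 of 16 above and 7 of 16 below in both lines. Open symbols mark Mars2, which neither control array read well above background, so that its change has only a lower bound.

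Aars, alanyl-tRNA synthetase, showed the largest change of the 39. Its level was 5.01 in halofuginone K5 and 5.94 in halofuginone K6, against 2.46 in control K5 and 3.30 in control K6. The higher control array (K6) lay well below the lower halofuginone array (K5). The change was 2.55 in K5 and 2.64 in K6, a rise of 2.59 or 6.04-fold (SE 0.26, limma adjusted p = 0.037). Its probe lies on mm9 chromosome 8 from 113579376 to 113579434. Yars, tyrosyl-tRNA synthetase, had levels of 2.99 and 3.78 in halofuginone K5 and K6, against 0.99 and 1.11 in the controls. The 2 control arrays lay close together and the 2 halofuginone arrays lay well above them. The rise was 2.34 (SE 0.31, limma adjusted p = 0.042), read on chromosome 4 from 128896047 to 128896106.

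Tars, threonyl-tRNA synthetase, had levels of 5.64 and 5.91 in halofuginone K5 and K6, against 3.50 and 3.70 in the controls. The lines gave nearly the same change, 2.13 and 2.20, and the rise was 2.17 (SE 0.26, limma adjusted p = 0.039; probe on chromosome 15 from 11313527 to 11313586). Tarsl2, which encodes the other cytosolic threonyl enzyme, did not pass. Its change was 0.30 in K5 and -0.17 in K6 (mean 0.07, limma adjusted p = 0.887), and the mean was -0.06 with scaling on probes detected on all 4 arrays. Nars, asparaginyl-tRNA synthetase, had levels of 4.49 and 4.96 in halofuginone K5 and K6, against 2.88 and 2.54 in the controls. Halofuginone and control levels did not overlap, and the change was larger in K6 (2.42) than in K5 (1.61), a difference that was not tested. The rise over both lines was 2.02 (SE 0.33, limma adjusted p = 0.048).

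The other 4 that rose, Rars, Eprs, Iars and Lars, encode enzymes of the multisynthetase complex, the assembly that also holds Aimp1, Aimp2 and Eef1e1. Rars, arginyl-tRNA synthetase, had levels of 5.26 and 5.58 in halofuginone K5 and K6, against 3.39 and 3.22 in the controls (rise 2.12, SE 0.28, limma adjusted p = 0.043; chromosome 11 from 35621903 to 35621962). Eprs encodes the glutamyl-prolyl enzyme whose prolyl domain halofuginone occupies. Its level was 5.44 and 5.58 in halofuginone K5 and K6, against 3.57 and 3.59 in the controls, and the 2 arrays of each condition were nearly equal. The rise was 1.93 (SE 0.26, limma adjusted p = 0.042), read on chromosome 1 from 187252009 to 187252068. Iars, isoleucyl-tRNA synthetase, had levels of 4.76 and 4.77 in halofuginone K5 and K6, against 2.97 and 2.87 in the controls, and rose by 1.84 (SE 0.26, limma adjusted p = 0.044; chromosome 13 from 49829328 to 49829387). Lars, leucyl-tRNA synthetase, had levels of 4.67 and 4.90 in halofuginone K5 and K6, against 2.79 and 3.22 in the controls, and rose by 1.78 (SE 0.26, limma adjusted p = 0.044). In each of these 4 genes both halofuginone arrays lay above both control arrays, as in 30% of all tested genes.

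**Figure D3:**
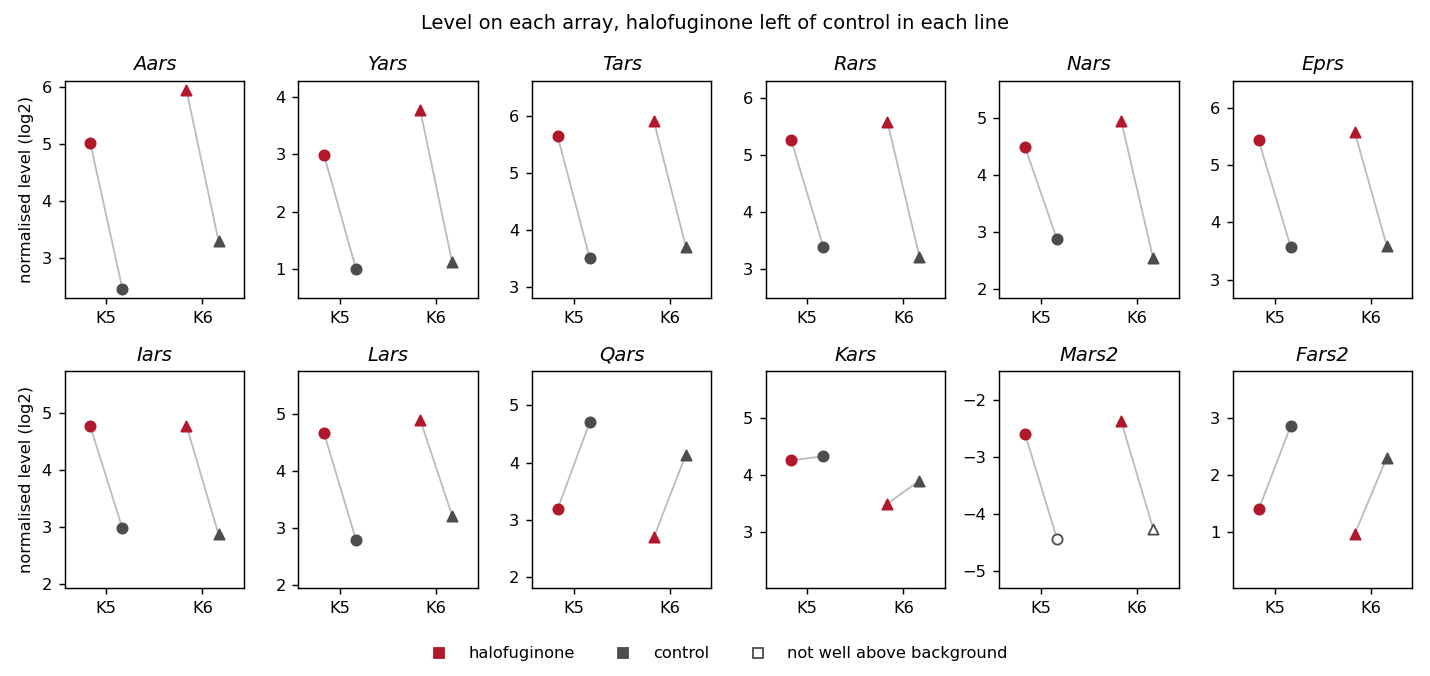
Each panel gives the level of 1 gene (log2 of signal relative to the 75th percentile of the array) on the 4 arrays, halofuginone in red and control in grey, K5 as circles and K6 as triangles, with open symbols for values not well above background. The panels span the same number of log2 units; the 8 cytosolic genes that rose and Mars2 slope down towards control in both lines, and Qars, Kars and Fars2 slope up.

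The 8 enzymes of the multisynthetase complex ranged widely. Of these, 4 rose, and Mars, methionyl-tRNA synthetase, had a change of 1.19 (limma adjusted p = 0.077), whereas Dars, aspartyl-tRNA synthetase, had 0.37 (0.409), Kars, lysyl-tRNA synthetase, -0.24 (0.568) and Qars, glutaminyl-tRNA synthetase, -1.48 (0.050). The median was 1.48 over these 8 and 1.33 over the 13 cytosolic enzymes outside the complex, of which 4 rose. Qars was the only cytosolic member at least 2-fold lower in either line. Its level was 3.19 and 2.69 in halofuginone K5 and K6, against 4.70 and 4.14 in the controls. Both halofuginone arrays lay below both control arrays, and the changes of -1.51 and -1.45 were almost equal, with an adjusted p just above the threshold (SE 0.26), and under 12 other settings Qars passed in 7. Its second probe, on chromosome 9 from 108410790 to 108410849, gave 0.14 in K5 and -1.12 in K6. Kars had levels of 4.26 and 3.50 in halofuginone K5 and K6, against 4.33 and 3.90 in the controls, and these overlapped.

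Of the other cytosolic members that did not pass, Cars, cysteinyl-tRNA synthetase, had the largest change. Its level was 4.48 and 5.92 in halofuginone K5 and K6, against 3.11 and 3.93 in the controls (change 1.68, SE 0.30, limma adjusted p = 0.052). Sars, seryl-tRNA synthetase, had a change of 1.46 (limma adjusted p = 0.059). Farsb, the beta subunit of phenylalanyl-tRNA synthetase, had 1.33 (0.057) and Farsa, the alpha subunit of the same enzyme, 0.79 (0.142). Gars, glycyl-tRNA synthetase, had a change of 1.25 (0.062), with levels of 7.47 and 7.67 in halofuginone K5 and K6, against 6.26 and 6.38 in the controls. Wars (tryptophan) had a change of 1.02, Hars (histidine) 0.91 and Vars (valine) 0.63, each positive in both lines. In each of these genes both halofuginone arrays lay above both control arrays, as in 30% of all tested genes. The gap was least in Hars, where halofuginone K6 (2.01) lay little above control K5 (1.84).

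The scaffold proteins, which bind the enzymes of the complex to each other, did not pass (0 of 2 with limma, 1 higher at an unadjusted p under 0.05). Aimp2 had levels of 5.24 and 5.53 in halofuginone K5 and K6, against 4.57 and 4.38 in the controls (change 0.91, SE 0.28, limma adjusted p = 0.116). Aimp1, whose cleaved form is also a secreted cytokine, had levels of 4.76 and 4.55 in halofuginone K5 and K6, against 4.37 and 3.89 in the controls (change 0.52, SE 0.26, limma adjusted p = 0.248). Both had a positive change in both lines.

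Mitochondrial synthetase genes went both ways. Of 16, 15 were read well above background on all 4 arrays, and the other, Mars2, passed the filter through the halofuginone arrays alone. Of those 15, 0 rose and 0 fell (limma), beside 3.88% and 5.08% of all tested genes, and at an unadjusted p under 0.05 limma had 4 higher and 1 lower, beside 17.2% and 16.9%. Both halofuginone arrays lay above both control arrays in 5 of the 15 and below them in 6, beside 30% and 28.6% of all tested genes, which is near the background. Their median was 0.09 for the change in K5 and -0.42 in K6 (0.29 and -0.36 with Mars2), beside -0.03 and 0.04 over all tested genes, and the mean change of both lines ran between -1.40 (Fars2) and 1.19 (Ears2). A positive change in both lines was found in 5, a negative one in both in 7 and opposite signs in 3, beside 38.7%, 38% and 23.3% of all tested genes. At least 2-fold higher levels were found in 1 of the 15 in K5 and 4 in K6, beside 14.1% and 16.4% of tested genes, and at least 2-fold lower levels in 1 and 4, beside 14.9% and 16.4%. With Tarsl2 counted among the names that end in 2, and Mars2 included, the mean of both lines had a median of 0.07 in place of -0.07.

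Mars2 encodes the mitochondrial methionyl-tRNA synthetase. Its level was -2.60 and -2.37 in halofuginone K5 and K6, and neither control array read it well above background (values as read -4.44 and -4.26). On the processed signal it was therefore at least 3.31-fold higher after halofuginone, against the lowest signal well above background on each control array (chromosome 1 from 55295642 to 55295701). The fit gave a limma adjusted p of 0.043, which rests on control values below background and is not counted above. The normexp setting corrects the background by another method and was run with an offset of 50. After it the log2 change of Mars2 was 0.91, against 1.86 on the values as read. Ears2, the mitochondrial glutamyl enzyme, had levels of 1.48 and 1.99 in halofuginone K5 and K6, against 0.73 and 0.35 in the controls (change 1.19, limma adjusted p = 0.102). Rars2 had a change of 1.07 (0.078), Nars2 1.02 (0.126) and Yars2 0.94 (0.096). These 4, which encode the mitochondrial enzymes for glutamate, arginine, asparagine and tyrosine, were positive in both lines.

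At the other end, Fars2, the mitochondrial phenylalanyl-tRNA synthetase, had levels of 1.40 and 0.98 in halofuginone K5 and K6, against 2.86 and 2.31 in the controls. The arrays did not overlap between conditions, and the change of -1.40 (SE 0.26) just missed the threshold (limma adjusted p = 0.054). Aars2 (alanine) had changes of -0.40 in K5 and -1.62 in K6 (mean -1.01, limma adjusted p = 0.171). Lars2 (leucine) had a mean change of -0.71, Cars2 (cysteine) -0.69 and Sars2 (serine) -0.69. Pars2, the mitochondrial prolyl enzyme, had a mean change of -0.68 (limma adjusted p = 0.193), with levels of 0.56 and -0.16 in halofuginone K5 and K6, against 0.96 and 0.79 in the controls. Wars2 (tryptophan) had -0.30 and Tars2 (threonine) 0.40. Iars2, Hars2 and Vars2, for isoleucine, histidine and valine, were above 0 in K5 and below 0 in K6, at 0.49 and -0.13, 0.59 and -0.30, and 0.09 and -1.05.

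Set side by side for the same amino acid, the cytosolic gene had the larger change in both lines in 16 of 17 pairs. The median difference, cytosolic minus mitochondrial, was 1.29 in K5 and 2.03 in K6 over all 17. Alanine gave the widest gap, 2.95 in K5 (Aars 2.55, Aars2 -0.40) and 4.25 in K6 (2.64, -1.62). Among the pairs that hold Eprs, the gap to Pars2 was 2.27 in K5 and 2.95 in K6, and that to Ears2 was 1.12 and 0.35. Methionine was the exception, with Mars2 having only a lower bound. That bound is 1.73 on the log2 scale over both lines, against a change of 1.19 for Mars. The exception depended on the processing. The normexp setting joined another background correction with an offset of 50, and the part of each was not tested. After normexp the change of Mars2 was 0.91, below the range of Mars over the other settings that keep both lines (1.06 to 1.24). Eprs and Fars2 each serve 2 pairs, so the 17 are not independent, and no test was made over them. Probe sequences of paired genes shared at most 11 consecutive bases of 60 (median 7 over 19 comparisons).

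**Figure D4:**
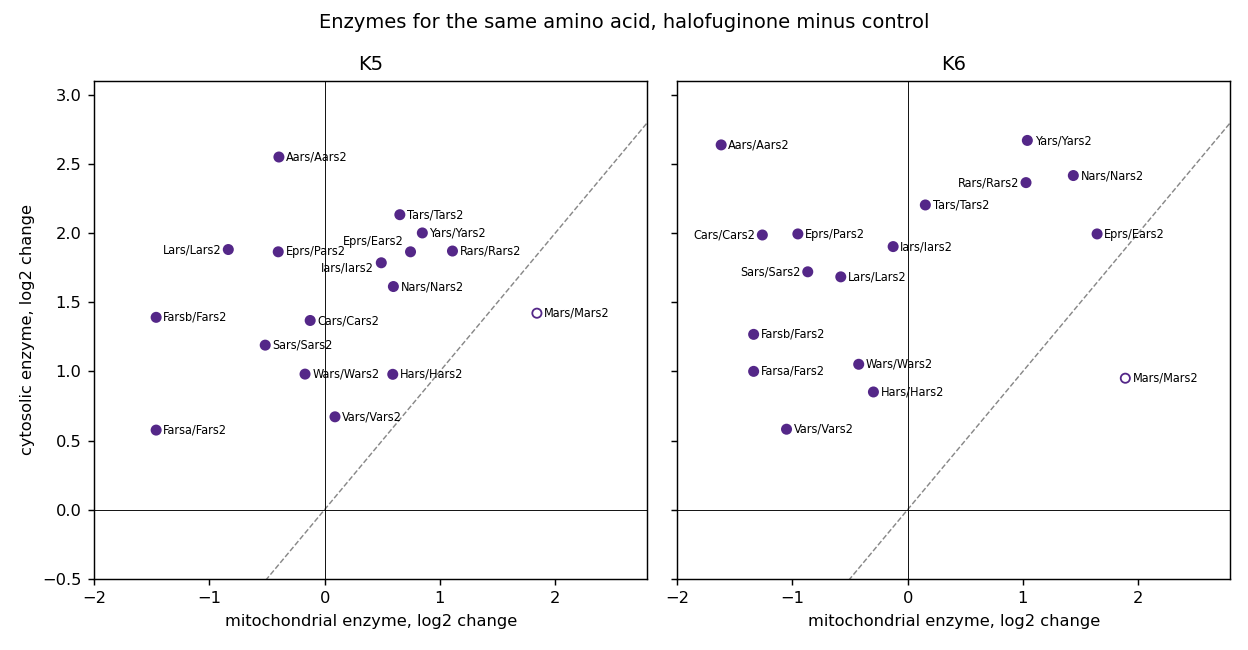
Each point is 1 pair of genes for the same amino acid, with the log2 change (halofuginone minus control) of the cytosolic gene on the vertical axis and that of the mitochondrial gene on the horizontal axis, in K5 (left) and K6 (right). In both lines 16 of 17 points lie above the dashed line of equal change, and Mars/Mars2 (open symbol, with control values of Mars2 as read below background) lies below it.

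The members were read by 93 probes in all, and a fit over 28262 tested probes gave a second view of each gene. Of all tested probes 2.03% rose and 2.57% fell. Of the 42 cytosolic probes tested, 12 rose and 0 fell, of the 35 mitochondrial probes 2 rose and 0 fell, and of the 3 scaffold probes 0 passed with limma. Some of these probes were well above background on neither control array, 2 of the cytosolic and 5 of the mitochondrial ones. Without them 11 of 40 cytosolic and 0 of 30 mitochondrial probes rose. At an unadjusted p under 0.05 the cytosolic, mitochondrial and scaffold probes had 31 higher and 1 lower, 11 higher and 3 lower, and 2 higher and 0 lower, beside 18.3% higher and 15.3% lower over all tested probes. All 5 Eprs probes rose, with changes between 1.93 and 2.87, and so did the 3 of Rars (2.12 to 2.51). Of the 2 tested probes of Aars, 1 rose (2.59), and the other was not well above background in the controls. Against the lowest signal well above background on each control array, this other probe was at least 2.50-fold higher on the processed signal. Of the 3 Yars probes 1 rose (1.46 to 2.34), as did the only probe of Tars. The probes of Nars, Iars and Lars did not pass in this larger family of tests, at changes between 1.78 and 2.02.

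Probes of 1 gene disagreed by more than 2-fold in Iars2. In Ears2 3 probes ran between 0.98 and 1.34. Its other probe had levels of -2.85 and -2.37 in halofuginone K5 and K6, and was well above background on neither control array. By the same bound as for Mars2, on the processed signal, that probe was at least 3.03-fold higher. In Iars2 the 3 tested probes ran between -0.99 and 0.18, the negative one on chromosome 1 from 187135834 to 187135893. Probes of opposite sign, measured in both conditions, were found in Tarsl2 (-0.07 to 0.07), Hars2 (-0.10 to 0.15) and Iars2. The probes of Pars2 gave -0.68 and -0.63 as means, but the second one read 1.33 in K5 and -2.59 in K6.

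**Figure D5:**
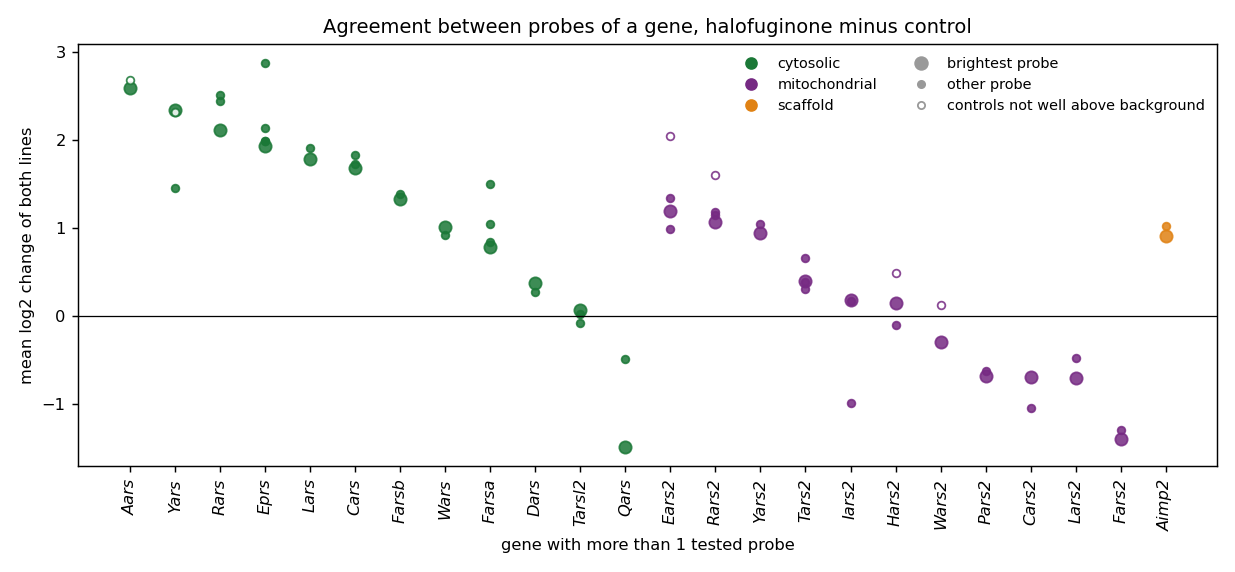
Each point is the mean log2 change of both lines (vertical axis, halofuginone minus control) at 1 tested probe, for the genes with more than 1 tested probe (horizontal axis), with the brightest probe of a gene drawn larger. The 5 Eprs probes lie between 1.93 and 2.87, those of Rars between 2.12 and 2.51, and those of Iars2 between -0.99 and 0.18. Open symbols are probes well above background on neither control array, whose values are as read.

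Other genes of tRNA charging were measured from a list of 25 names, of which 24 were matched and tested. Of these, 2 rose, 0 fell and 22 did not pass (limma), beside 3.88% and 5.08% of all tested genes, with 9 higher and 1 lower at an unadjusted p under 0.05 (17.2% and 16.9%), and the median over the list was 0.81 for K5 and 0.28 for K6. Xpot, the exportin that carries tRNA out of the nucleus, rose by 1.99 (2.02 in K5 and 1.96 in K6, limma adjusted p = 0.042). Eef1e1, the third scaffold protein of the multisynthetase complex, rose by 1.93 (1.87 and 1.98, limma adjusted p = 0.042), beside 0.52 and 0.91 for Aimp1 and Aimp2. Of the amidotransferase subunits that make glutaminyl-tRNA in mitochondria, Gatb had a mean change of -0.61, Gatc 0.66 and Qrsl1 0.71.

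Among 11 genes of the amino acid response, 7 rose and 0 fell with limma, beside 3.88% and 5.08% of all tested genes (10 higher and 0 lower at an unadjusted p under 0.05, beside 17.2% and 16.9%), and the median change was 1.95. Atf4 rose by 1.95 and Asns, asparagine synthetase and a target of Atf4, by 2.53 (limma adjusted p = 0.045 and 0.037). Eif2ak4, which encodes the sensor Gcn2, had changes of -0.43 and -0.17 and did not pass.

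In the same fit, K6 was compared with K5 over both conditions. Of 39 members, 0 passed with limma, beside 0.173% of all tested genes, and 5 had an unadjusted p under 0.05, beside 15.5%, which is near the background. The largest differences, K6 minus K5, were 1.13 for Cars (limma adjusted p = 0.238), 0.88 for Aars (0.264), -0.97 for Tarsl2 (0.263) and -0.91 for Wars2 (0.264). For Aars the K6 level was above the K5 level under both conditions, 5.94 and 5.01 with halofuginone and 3.30 and 2.46 in control, and for Tarsl2 below it, 0.02 and 1.23 with halofuginone and 0.19 and 0.93 in control.

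The calls above depend on the fit. Under the other settings that keep both lines the changes of the 8 cytosolic genes that rose moved by at most 0.30 on the log2 scale, and that of Qars was -0.99 with the mean over probes. Without the line as a block, without the filter, with dim values raised to 1 floor (added after seeing the data), or with scaling on probes detected on all 4 arrays, limma called 0 of 21 cytosolic members (14 to 18 at an unadjusted p under 0.05). In those settings 0% of all tested genes were called. It called 15 higher and 1 lower with the filter on all 4 arrays (12% of all tested genes were higher), and 16 higher and 1 lower after normexp (13.5%), with Qars the lower one each time.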

How the data were processed

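Expression was measured in 4 samples on 1-colour Agilent arrays, with total RNA amplified and labelled with Cy3 per the labels' protocols. The deposited spot intensity used here is the processed signal, background-subtracted within each array, and the deposited flags mark spots well above background, saturated spots and outliers, per the file headers. Feature Extraction 10.7.1.1 made these files per the file headers, whereas the submitters' processing notes name 9.5.1.1. The deposited value table (intensity) was an alternative, whose making the sources used here do not describe. Since 1 slide held all 4 arrays, slide could not be tested as a batch, and the number of arrays limits the precision.

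Control and outlier spots were left out, spots of a probe were averaged (301 of 56605 probes were lost, 0 of 93 member probes), and log2 signal was set against the 75th percentile over spots of each array. A gene took its brightest probe, and probe positions are mm9 as the files give them. No genome of that build was used here, so the exon or UTR under a probe is not stated. limma 3.58.1 in R 4.3.3 compared halofuginone with control with the line as a block (1 residual and 2.97 prior degrees of freedom), Benjamini-Hochberg adjusted over all 19093 tested genes. The lines are paired because 5 and 6 name the same cells, and the K6 minus K5 differences in halofuginone and control arrays correlated across genes at r = 0.50, a description with no test. Changes within a line rest on 1 array per condition and carry no test. The fit was run on simulated data with the same spread for every gene and no detection limit. Those data differ from the arrays in both respects, so the run does not test the calls made here.

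Members and lists (cytosolic, scaffold and mitochondrial genes, tRNA charging accessory genes, amino acid response genes and cell type markers) were chosen with earlier results of these data known. Named were all members past the threshold, the largest changes in each direction among the others, genes whose probes as read disagreed by over 2-fold, both genes of each pair, and listed genes past the threshold; Atf4, Asns, Eif2ak4 and the amidotransferase subunits were named for their role. Of the accessory list, 1 gene is not reported here. Promoters came from RefSeq (GRCm38.p6) and were matched by symbol. Alternatives were quantile normalization, median centring, other percentiles, normexp with an offset of 50, the deposited table, other filters, the mean over probes, an intensity trend, no block, a common floor and leaving out a line.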

Additional observations from a re-analysis of the deposited data

Results flagged for a closer look

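In 4 members the lines moved in opposite directions, so that the change in K6 minus that in K5 was negative: -0.47 for Tarsl2 (-0.17 in K6 and 0.30 in K5), -0.62 for Iars2 (-0.13 and 0.49), -0.89 for Hars2 (-0.30 and 0.59) and -1.14 for Vars2 (-1.05 and 0.09). Each line has 1 array per condition, so this difference was not tested. Opposite signs were found in 23.3% of all tested genes.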

How the results depend on the processing

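The number of genes past the threshold depended strongly on the fit. With both lines kept, the change of Mars2 ran between 0.91 (normexp) and 1.92, that of Qars between -1.61 and -0.99, and that of any other member moved by at most 0.40. Against 1710 genes for halofuginone, limma gave 0 without the replicate block (4492 at an unadjusted p under 0.05), 0 without a filter (15052), 0 with the 75th percentile over probes detected on all 4 arrays (6481) and 0 with the common floor (5884), but 4012 with the filter on all 4 arrays, 4200 with an intensity trend and 5428 with normexp. Against 1300 probes, it gave 0 without the replicate block (6732), 0 without a filter (23711), 0 with the percentile over detected probes (9263), 1983 with quantile normalization, 5586 with the filter on all 4 arrays and 7488 with normexp. Against 33 genes for K6 and K5, it gave 0 without the block (798), with the mean over probes (2892), without a filter (3655), with the percentile over detected probes (2833) and with the common floor (2512), 148 with quantile normalization, 152 with the deposited table, 165 with the percentile over averaged probes, 293 with the trend, 298 with median centring, 305 with the filter on all 4 arrays and 1309 with normexp. The common floor and the percentile over averaged probes were chosen after seeing the data. Scaling on detected probes shifted the median of all genes by -0.12 and no filter by -0.35.

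The cytosolic median (1.33) was 1.21 with the percentile over detected probes and 1.39 with Tarsl2 moved to the names that end in 2, and ran between 1.29 and 1.37 with 1 line left out. The mitochondrial median (-0.07) was 0.066 with Tarsl2 added and ran between -0.36 and 0.29 with 1 line left out, and the scaffold median between 0.53 and 0.90. Leaving out a line leaves 1 pair, so these are values with no test. The sign turned with 1 line left out, without K5 for Hars2 (-0.30, and 0.59 without K6), Iars2 (-0.13 and 0.49) and Tarsl2 (-0.17 and 0.30), and without K6 for Vars2 (0.090, and -1.05 without K5). It also turned for Iars2 with the mean over probes (-0.21) and for Tarsl2 with the percentile over detected probes (-0.058). Mitochondrial calls, 1 higher in the main setting (Mars2, over control values below background), numbered 4 higher and 2 lower with normexp, 4 and 1 with the trend, and 0 under the 4 settings that gave 0 genes (5 to 7 at an unadjusted p under 0.05). Cytosolic calls numbered 15 higher and 1 lower with the trend. No other scaling turned a member's sign, and the cause of these differences was not tested.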
